A study of Saccharomyces cerevisiae with 16 samples.

Results

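The genes of NAD metabolism described here were followed in budding yeast over 4 chromatin mutants: BNA2 (YJR078W), BNA4 (YBL098W), BNA5 (YLR231C), BNA1 (YJR025C), BNA6 (YFR047C), BNA3 (YJL060W), TNA1 (YGR260W) and NPT1 (YOR209C). They were taken by their systematic ORF names, as genes that make NAD from tryptophan or that take up and use nicotinic acid. That rule uses no measured value, but the genes were chosen with earlier results of these data known. They are 8 of the 6074 genes in the deposited table, and 7 of them were among the 5147 genes tested.

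NAD is the electron carrier of central metabolism and the substrate that sirtuin deacetylases such as Sir2 and Hst1 consume. Yeast makes it anew from tryptophan through the kynurenine pathway, and it can also import nicotinic acid from the medium and turn it into the same intermediate, nicotinic acid mononucleotide (NaMN). In yeast, BNA genes are known targets of the repressor Sum1, which acts with Hst1, so that the pathway is linked to the NAD it makes.

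The study hybridised 16 2-colour arrays, 4 for each mutant, and each array set mutant cDNA against cDNA of a paired wild-type culture. The mutants were set1htz1sir2, which lacks SET1, HTZ1 and SIR2; set1htz1, which lacks SET1 and HTZ1; H3K4A, whose histone H3 has alanine in place of lysine 4; and set1, which lacks SET1. Set1 is the methyltransferase of that lysine, the product of HTZ1 is the H2A variant H2A.Z, and Sir2 is the deacetylase of silent chromatin, so that the mutants can be used to ask how loss of the enzyme compares with loss of its target residue and what the further deletions change. All cultures, wild type included, were in log phase in rich medium to which tryptophan and adenine had been added, so these genes were measured where the precursor of the pathway was supplied. The sources used here do not give the strain background, the mating type or how the alleles were made.

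Every value is a log2 ratio of mutant over wild type, so 0 is the wild-type level and 1 is a 2-fold higher one. The mutant carried Cy5 on replicates 1 and 3 and Cy3 on replicates 2 and 4 of each group, and values are given in the order of replicates 1 to 4. The number of arrays limits the precision. Statements on whether the arrays of different mutants overlapped describe single genes. The share of all genes with no overlap is not given. "Rose", "fell", "higher" and "lower" are used of genes with a limma adjusted p under 0.05, and errors after ± are limma's standard errors unless an SD is named.

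Each array gave 5385 to 5802 spots with a value, with a median log2 ratio of -0.04 to 0.03 and an SD over spots of 0.248 to 0.640. Arrays of set1 stood apart by dye, with correlations of 0.729 to 0.791 within a dye and -0.261 to 0.0964 across dyes. Arrays of H3K4A correlated at 0.0874 to 0.358 within a dye and at -0.285 to 0.616 across dyes, and those of set1htz1sir2 and set1htz1 at 0.664 or more. SET1 averaged -2.31, -2.34, -0.14 and -2.67 in set1htz1sir2, set1htz1, H3K4A and set1. SIR2 averaged -2.44 in set1htz1sir2, and HTZ1 averaged -2.94 in set1htz1 and had no value in set1htz1sir2. For H3K4A the deposited description names total RNA as the labelled material and the labels name polyA RNA, so in comparisons of H3K4A with another mutant a difference in RNA input cannot be told apart from the mutation.

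BNA2, the gene of the first enzyme of the pathway, which opens the ring of tryptophan, was higher than wild type in all 4 mutants. Its log2 ratios were 1.48, 1.36, 1.92 and 1.36 on the set1htz1sir2 arrays, 2.77, 2.84, 2.39 and 2.56 on the set1htz1 arrays, 0.68, 0.69, 0.57 and 0.41 on the H3K4A arrays, and 1.75, 1.94, 2.20 and 1.74 on the set1 arrays. All 16 values lay above 0. The set1htz1 arrays were the highest and did not overlap any other group, the H3K4A arrays were the lowest and did not overlap any other group either, and the ranges of set1htz1sir2 and set1 overlapped. The fitted rise was 1.53 ± 0.11 in set1htz1sir2 (2.89-fold, limma adjusted p = 1.64e-09), 2.64 ± 0.11 in set1htz1 (6.23-fold, adjusted p = 2.01e-12), 0.59 ± 0.11 in H3K4A (1.50-fold, adjusted p = 0.0023) and 1.91 ± 0.11 in set1 (3.75-fold, adjusted p = 1.58e-09). Among the 5147 genes, counted from the highest ratio, BNA2 ranked 43 in set1htz1sir2, 2 in set1htz1, 65 in H3K4A and 2 in set1. The rise in H3K4A was past the threshold in the fit over all 16 arrays, but with the H3K4A arrays fitted alone the adjusted p was 0.072 at the same log2 ratio of 0.59. With quantile normalization the log2 ratio was 0.93 (adjusted p = 9.59e-05). That setting called 786 of all genes in H3K4A, against 216 in the main fit.

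Of BNA4, BNA5 and BNA1, which act between BNA2 and quinolinate, BNA1 was the one called higher in more than 1 mutant. BNA4 encodes kynurenine monooxygenase, which hydroxylates kynurenine. The BNA4 log2 ratios were -0.27, 0.03, -0.15 and -0.18 in set1htz1sir2, 0.18, 0.14, 0.30 and -0.03 in set1htz1, 0.63, -0.27, -0.11 and 0.09 in H3K4A, and 0.01, -0.18, -0.09 and 0.20 in set1. Values fell on both sides of 0 in every group and the ranges of all groups overlapped. No ratio of BNA4 to wild type was called, with limma adjusted p from 0.306 to 0.946.

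BNA5 encodes kynureninase, which cleaves the hydroxylated kynurenine. For BNA5 the log2 ratios were 0.19, 0.12, 0.45 and 0.30 in set1htz1sir2, -0.15, 0.07, 0.25 and 0.01 in set1htz1, 0.55, 0.09, 0.09 and 0.09 in H3K4A, and -0.12, -0.49, 0.26 and -0.22 in set1. All 4 set1htz1sir2 arrays and all 4 H3K4A arrays were above 0, and the groups overlapped. BNA5 rose by a small amount in set1htz1sir2, 0.27 ± 0.10 (1.20-fold, limma adjusted p = 0.0404), and was not called in set1htz1 (0.05), H3K4A (0.20) or set1 (-0.14). The call in set1htz1sir2 was lost without replicate 2 (0.28, adjusted p = 0.0793), without replicate 3 (0.23, adjusted p = 0.148) and without replicate 4 (0.22, adjusted p = 0.172), with no dye term (adjusted p = 0.0664) and with quantile normalization (0.22, adjusted p = 0.106).

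BNA1 encodes the dioxygenase that opens the ring of hydroxyanthranilate, the step before quinolinate forms. The arrays gave BNA1 log2 ratios of 0.86, 0.78, 0.85 and 1.03 in set1htz1sir2, 1.40, 1.40, 1.50 and 1.15 in set1htz1, -0.35, 0.02, 0.25 and -0.34 in H3K4A, and -0.03, 0.11, 0.01 and -0.10 in set1. The 2 mutants that lack HTZ1 were high on every array and did not overlap H3K4A or set1, whose arrays lay on both sides of 0. BNA1 rose by 0.88 ± 0.10 in set1htz1sir2 (1.84-fold, limma adjusted p = 8.74e-07) and by 1.36 ± 0.10 in set1htz1 (2.57-fold, adjusted p = 5.98e-09). It was not called in H3K4A (-0.10 ± 0.10, adjusted p = 0.684) or in set1, where the 95% interval of the log2 ratio ran from -0.21 to 0.205.

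BNA6 encodes the phosphoribosyltransferase that turns quinolinate into NaMN. It had values only on the set1htz1sir2 arrays, -0.25, 0.64, 0.18 and 0.40, with a mean of 0.24 ± 0.38 (SD, n = 4), and it could not be tested. BNA3 encodes a kynurenine aminotransferase, an enzyme of the side branch to kynurenic acid. On the arrays BNA3 had log2 ratios of 0.30, -0.03, 0.11 and 0.14 in set1htz1sir2, 0.15, -0.34, 0.33 and 0.00 in set1htz1, -0.22, 0.07, -0.04 and 0.30 in H3K4A, and 0.19, 0.66 and -0.12 on replicates 1, 3 and 4 of set1, with no value on replicate 2. The groups overlapped, and no ratio of BNA3 to wild type was called, with limma adjusted p from 0.311 to 0.942.

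Of the 2 genes for nicotinic acid, TNA1 was called in some mutants and NPT1 in none. TNA1 encodes the high-affinity permease that imports nicotinic acid. Its log2 ratios were 0.10, 0.21, 0.00 and 1.09 in set1htz1sir2, 1.43, 1.43, 1.40 and 1.52 in set1htz1, 0.62, -0.02, 0.06 and 0.13 in H3K4A, and 1.21, 1.15, 1.52 and 1.60 in set1. The set1htz1 and set1 arrays were high and overlapped each other, and they did not overlap set1htz1sir2 or H3K4A. TNA1 rose by 1.45 ± 0.14 in set1htz1 (2.72-fold, limma adjusted p = 2.45e-07) and by 1.37 ± 0.14 in set1 (2.58-fold, adjusted p = 2.32e-06). It ranked 43 from the highest ratio in set1htz1 and 12 in set1. It was not called in H3K4A (0.20 ± 0.14, adjusted p = 0.553).

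In set1htz1sir2 the TNA1 ratio rested on 1 array. Replicate 4 was at 1.09 and the other 3 arrays lay between 0.00 and 0.21, and the mean was 0.05 over the arrays with the mutant in Cy5 and 0.65 over those with it in Cy3. The fit with all arrays called a rise of 0.35 ± 0.14 (1.27-fold, limma adjusted p = 0.047), and without replicate 4 the log2 ratio was 0.10 with an adjusted p of 0.565. The call was also lost without replicate 2 (0.42, adjusted p = 0.0531), with no dye term (adjusted p = 0.0593), with the set1htz1sir2 arrays fitted alone (adjusted p = 0.0537) and with quantile normalization (0.30, adjusted p = 0.108).

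NPT1 encodes the phosphoribosyltransferase that turns nicotinic acid into NaMN, the step after import. Its log2 ratios were 0.10, -0.15, -0.36 and -0.29 in set1htz1sir2, 0.00, -0.15, 0.06 and -0.27 in set1htz1, 0.49, -0.46, 0.02 and 0.01 in H3K4A, and 0.04, -0.34, 0.58 and -0.15 in set1. The groups overlapped and no ratio to wild type was called, with limma adjusted p from 0.224 to 0.970. NPT1 was the member with a called dye term, 0.34 higher with the mutant in Cy5 than in Cy3 (adjusted p = 0.0472), and in set1 it averaged 0.31 with the mutant in Cy5 and -0.25 with it in Cy3.

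**Figure D1:**
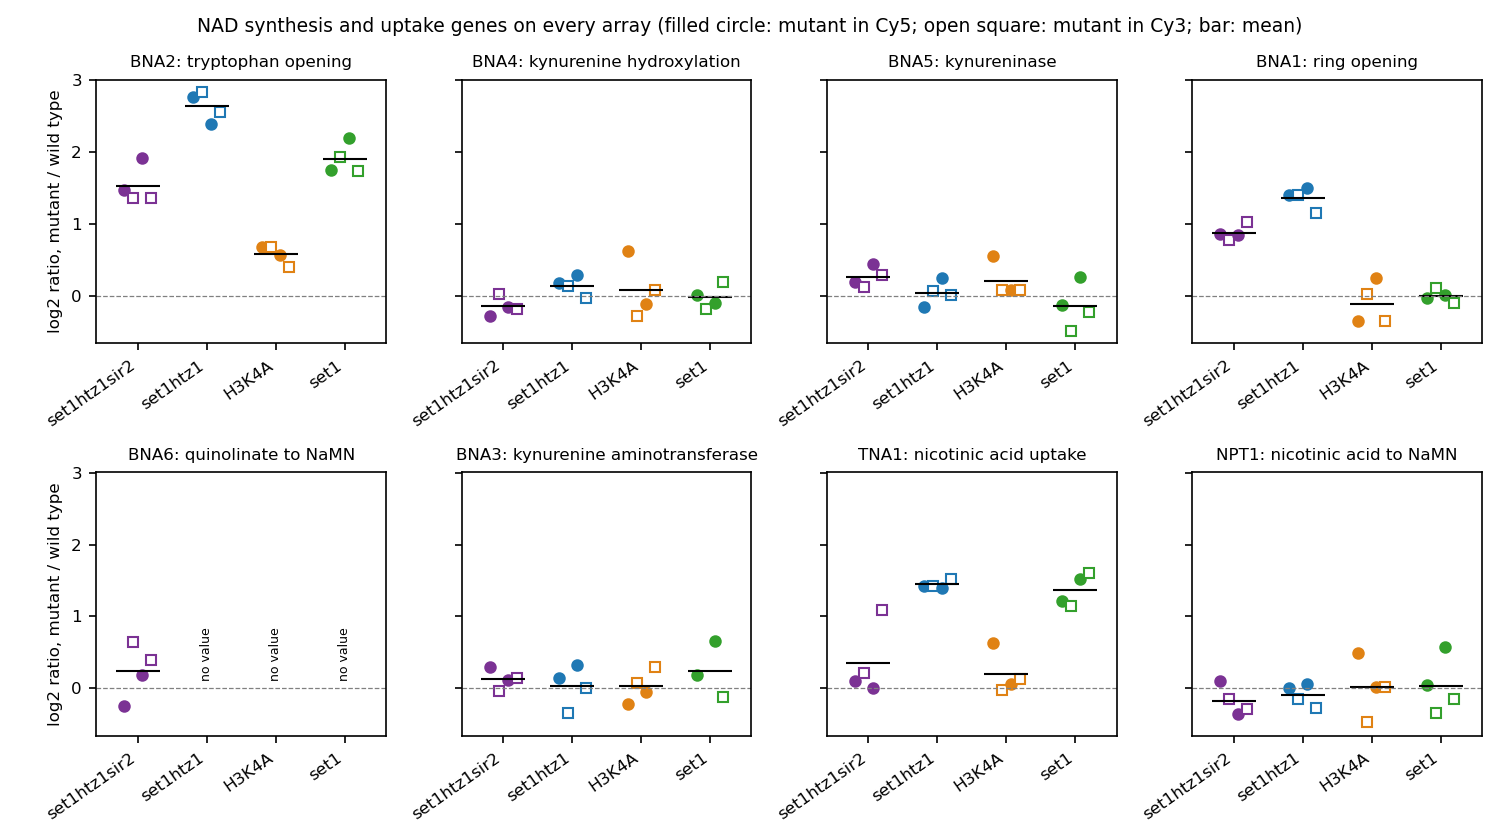
Log2 ratio of mutant over wild type (vertical axis) of the 8 genes on every array, by mutant (horizontal axis); filled circles have the mutant in Cy5, open squares in Cy3, and the bar is the mean of up to 4 arrays. BNA2 lies above 0 on all 16 arrays, and BNA1 is high in set1htz1sir2 and set1htz1. TNA1 is high in set1htz1 and set1 with 1 high array (1.09) in set1htz1sir2. BNA5 lies a little above 0 on every set1htz1sir2 and H3K4A array, and the other genes scatter around 0.

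On H3K4A replicate 1, TNA1 (0.62), BNA4 (0.63), BNA5 (0.55) and NPT1 (0.49) had their highest H3K4A value, and BNA1 (-0.35) and BNA3 (-0.22) had their lowest. That array also had the widest spread of all H3K4A arrays, an SD of 0.429 against 0.248 to 0.319 on the other 3. Without it the H3K4A log2 ratios were 0.03 for TNA1, -0.10 for BNA4, 0.11 for BNA5 and -0.10 for NPT1, and BNA2 was still called at 0.57 (limma adjusted p = 0.0119).

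Counted over the 7 genes tested, 4 were higher and 0 lower than wild type in set1htz1sir2 (BNA2, BNA1, TNA1 and BNA5), where 24.1% of all genes tested were called higher and 26.3% lower. In set1htz1, 3 were higher and 0 lower (BNA2, TNA1 and BNA1), against 21.2% higher and 26.3% lower among all genes. In H3K4A, 1 was higher and 0 lower (BNA2), against 3.59% and 0.602%. In set1, 2 were higher and 0 lower (BNA2 and TNA1), against 9.05% and 9.79%. The median log2 ratio of the 7 genes was 0.27 in set1htz1sir2, 0.15 in set1htz1, 0.08 in H3K4A and 0.03 in set1, and that of all genes tested was -0.03, -0.04, -0.02 and -0.02. BNA3, BNA4 and NPT1 were called in none of the 4 mutants.

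The mutants were then compared with one another, as differences between their log2 ratios to wild type. Removing SIR2 from the double mutant went with lower BNA2, TNA1 and BNA1. Of the 7 genes, 0 were higher and 3 lower in set1htz1sir2 than in set1htz1, against 7.25% higher and 5.4% lower among all genes tested. BNA2 was lower by a difference of -1.11 ± 0.15 (limma adjusted p = 4.47e-05) and TNA1 by -1.10 ± 0.20 (adjusted p = 0.00124), the first with no overlap between the arrays (at most 1.92 in set1htz1sir2, at least 2.39 in set1htz1) and the second with none either (at most 1.09, at least 1.40). BNA1 differed by -0.48 ± 0.14 (adjusted p = 0.0292). Its arrays did not overlap, but the call was lost without any 1 of replicates 1, 2 and 3 of either mutant (adjusted p from 0.0611 to 0.0951) and with quantile normalization (-0.47, adjusted p = 0.142).

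The second deletion, that of HTZ1, went with higher BNA1 and BNA2 and with no detected difference in TNA1. In set1htz1 against set1, 2 genes were higher and 0 lower, where 9.03% and 10.3% of all genes were. BNA1 differed by 1.37 ± 0.14 (2.58-fold, limma adjusted p = 2.89e-06) and BNA2 by 0.73 ± 0.15 (1.66-fold, adjusted p = 0.0026). TNA1 differed by 0.08 ± 0.20, with a 95% interval from -0.35 to 0.50. With quantile normalization BNA2 differed by 0.31 and was no longer called (adjusted p = 0.326), and TNA1 differed by -0.23 (adjusted p = 0.517).

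In set1htz1sir2 against set1, 2 genes were higher (BNA1 and BNA5) and 1 lower (TNA1), where 14.6% and 14.1% of all genes were. BNA1 differed by 0.88 ± 0.14 (limma adjusted p = 0.000139) and TNA1 by -1.02 ± 0.20 (adjusted p = 0.000963). BNA2, whose arrays overlapped, differed by -0.38 ± 0.15, with a 95% interval from -0.69 to -0.06 and an adjusted p of 0.0671 that missed the threshold. It passed with quantile normalization (-0.82, adjusted p = 0.0072), without set1 replicate 1 (-0.45, adjusted p = 0.049) and without set1htz1sir2 replicate 3 (-0.50, adjusted p = 0.027). BNA5 differed by 0.41 ± 0.15 (adjusted p = 0.0444), a call that was lost without set1 replicate 1, 2 or 4 and without set1htz1sir2 replicate 2, 3 or 4 (adjusted p from 0.0692 to 0.13), with no dye term (adjusted p = 0.0766) and with quantile normalization (adjusted p = 0.0925).

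The H3K4A mutant and the set1 mutant did not have the same levels of BNA2 and TNA1. As said above, a difference in RNA input cannot be told apart from the mutation in this comparison. In H3K4A against set1, 0 genes were higher and 2 lower, where 4.1% and 3.4% of all genes were. BNA2 differed by -1.32 ± 0.15 (0.40-fold, limma adjusted p = 4.47e-05) and TNA1 by -1.17 ± 0.20 (0.44-fold, adjusted p = 0.00155). For both genes all H3K4A arrays lay below all set1 arrays. BNA1, at 0 in both mutants within the spread of the arrays, differed by -0.10 ± 0.14, with a 95% interval from -0.40 to 0.19.

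Against H3K4A, 3 genes were higher in set1htz1 and 0 lower, where 11% and 14.7% of all genes were. BNA2 differed by 2.05 ± 0.15, BNA1 by 1.47 ± 0.14 and TNA1 by 1.25 ± 0.20, with limma adjusted p of 4.58e-08, 9.37e-07 and 0.000225. In set1htz1sir2 against H3K4A, 2 genes were higher and 0 lower, where 15.4% and 16.3% of all genes were. BNA1 differed by 0.98 ± 0.14 and BNA2 by 0.94 ± 0.15, with adjusted p of 4.35e-05 and 0.000128. TNA1 differed by 0.15 ± 0.20, with a 95% interval from -0.27 to 0.57. With quantile normalization BNA2 differed by 0.29 between set1htz1sir2 and H3K4A and was no longer called (adjusted p = 0.293). BNA3, BNA4 and NPT1 were called in none of the 6 comparisons between mutants.

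The fitted means ordered the mutants for BNA2, TNA1 and BNA1 as follows, and no test compared the genes with one another. For BNA2 the order was set1htz1, set1, set1htz1sir2 and H3K4A, and of its neighbours only set1 and set1htz1sir2 were not separated by the test. With quantile normalization that pair was separated and the other neighbours of BNA2 were not. For TNA1 the means had the same order. Its first pair and its last pair were each not separated, and the step lay between set1 and set1htz1sir2. The first pair changed order with quantile normalization (-0.23) and the last pair without set1htz1sir2 replicate 4 (-0.10). For BNA1 the order was set1htz1, set1htz1sir2, set1 and H3K4A, and the last pair was not separated. The call between the first pair was lost under several alternatives, as given above.

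**Figure D2:**
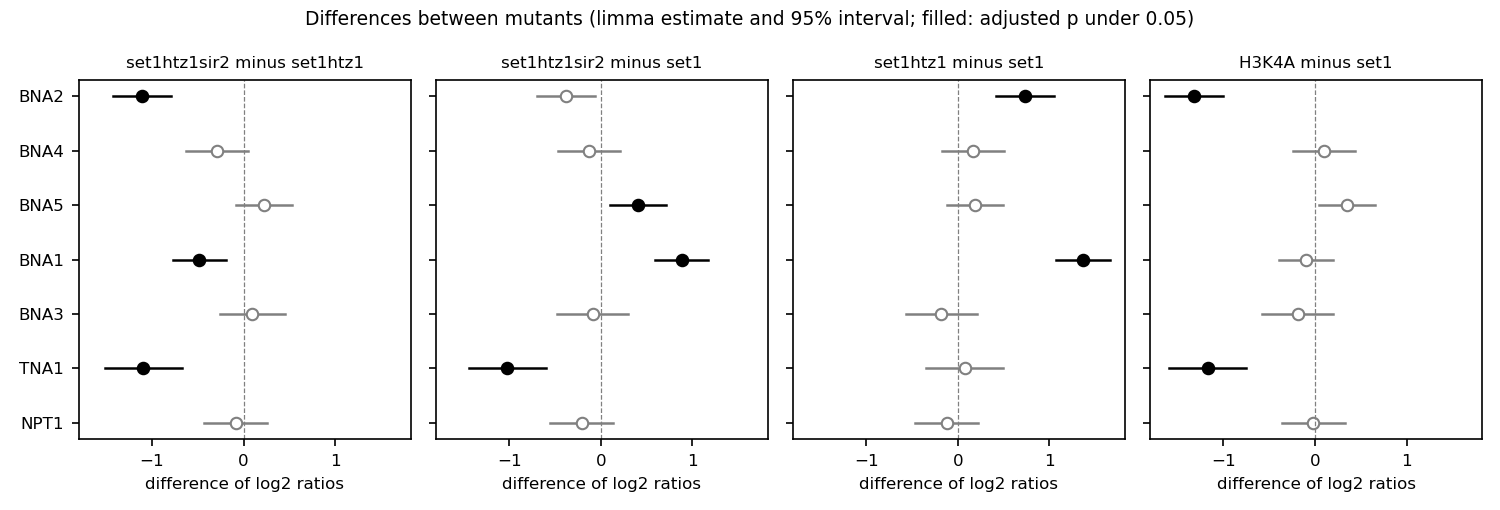
Difference of log2 ratios (horizontal axis) of the 7 tested genes in 4 comparisons between mutants, with limma's 95% interval; filled points have an adjusted p under 0.05. BNA2 and TNA1 are lower in set1htz1sir2 than in set1htz1 and in H3K4A than in set1, and BNA1 is higher in set1htz1 and in set1htz1sir2 than in set1.

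Among the remaining steps to NAD, BNA7 and QNS1 were lower in the mutants that lack HTZ1. BNA7, which encodes the enzyme of the step after BNA2, averaged -0.43, -0.63, -0.24 and -0.22 in set1htz1sir2, set1htz1, H3K4A and set1. It fell in set1htz1sir2 and set1htz1 (limma adjusted p = 0.00136 and 5.27e-05) and lay below 0 on all 16 arrays. QNS1, which encodes the last enzyme of NAD synthesis, fell by 0.64 in set1htz1sir2 and by 0.39 in set1htz1 (adjusted p = 0.000141 and 0.0209), and was at 0.06 in H3K4A and -0.32 in set1 with no call. The adenylyltransferase gene NMA1 was called in no mutant, with fitted ratios from -0.13 to 0.07. PNC1 encodes the nicotinamidase that feeds nicotinic acid to NPT1. It had no value on the H3K4A arrays and was not tested; it averaged 1.11 ± 0.44 in set1htz1sir2, 0.78 ± 0.13 in set1htz1 and -0.04 ± 0.41 in set1 (SD, n = 4 each), with ranges of 0.73 to 1.74, 0.71 to 0.98 and -0.49 to 0.32. The PNC1 arrays of the mutants that lack HTZ1 were thus all above those of set1.

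The list of NAD salvage and activation genes also holds BNA7, of the tryptophan route, and QNS1, which both routes share. Of its 8 tested genes, 0 were higher and 4 lower in set1htz1sir2 (BNA7, QNS1, URH1 and NRK1), where 24.1% and 26.3% of all genes were. In set1htz1, 2 were higher and 4 lower (all genes 21.2% and 26.3%), in H3K4A 0 and 0 (all genes 3.59% and 0.602%), and in set1 1 and 0 (all genes 9.05% and 9.79%). URH1, a nucleosidase gene, fell by 0.42 in set1htz1sir2 and by 0.25 in set1htz1, and NRK1, the nicotinamide riboside kinase gene, fell by 0.41 and by 0.29 there. Their median log2 ratio was -0.26 in set1htz1sir2, -0.16 in set1htz1, 0.04 in H3K4A and -0.08 in set1. Of the 3 NAD kinase genes, which make NADP, 0 were called in set1htz1sir2 or H3K4A, 1 was higher in set1htz1 (YEF1 at 0.62) and 2 were higher in set1 (YEF1 at 0.46 and POS5 at 0.39). The shares of all genes called higher were 24.1% in set1htz1sir2, 3.59% in H3K4A, 21.2% in set1htz1 and 9.05% in set1. UTR1 was not called in any mutant (-0.14, -0.14, -0.12 and -0.14 in set1htz1sir2, set1htz1, H3K4A and set1).

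The repressor that acts on BNA genes was represented among the tested genes by HST1 and SUM1. RFM1, listed with them, had no value in set1htz1sir2 or set1htz1 and was not tested. It averaged -0.13 ± 0.43 in H3K4A and -0.64 ± 0.38 in set1 (SD, n = 4 each), with a range of -0.97 to -0.12 in set1. HST1 fell by 0.67 in set1htz1sir2 and by 0.54 in set1htz1 (limma adjusted p = 3.52e-05 and 0.000341), and was at -0.13 in H3K4A and -0.14 in set1 with no call. SUM1 was not called, at -0.16, 0.06, -0.50 and 0.01 in set1htz1sir2, set1htz1, H3K4A and set1. HST2, a cytoplasmic sirtuin gene, rose by 0.75 in set1htz1sir2 and by 0.82 in set1htz1. Of the 5 tested genes of this list, 1 was higher and 2 lower in set1htz1sir2, SIR2 itself included (all genes 24.1% and 26.3%). In set1htz1, 1 was higher and 1 lower, which is near the share of all genes there (21.2% and 26.3%). In H3K4A and set1 0 were called (all genes 3.59% and 0.602% in H3K4A, 9.05% and 9.79% in set1).

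Other known targets of Sum1, the mid-sporulation genes, were mixed. Of 10 tested, 4 were higher and 2 lower in set1htz1sir2 (all genes 24.1% and 26.3%), 5 and 1 in set1htz1 (all genes 21.2% and 26.3%), 3 and 0 in H3K4A (all genes 3.59% and 0.602%), and 4 and 1 in set1 (all genes 9.05% and 9.79%). SPS19, a peroxisomal reductase gene, rose by 1.24, 1.41, 0.56 and 0.98 in set1htz1sir2, set1htz1, H3K4A and set1, and DIT1, a spore wall gene, rose by 0.90, 0.98, 0.73 and 0.88. GAS4, a glucanosyltransferase gene of the spore wall, rose by 0.86, 1.26, 0.43 and 1.08, the H3K4A value with an adjusted p of 0.0495. DIT2, another spore wall gene, rose by 0.53, 0.78 and 1.07 in set1htz1sir2, set1htz1 and set1 and was at 0.20 in H3K4A with no call. SMK1 and GAS2 were below wild type in some mutants, but GAS2 was above it in set1htz1. SMK1 averaged -0.78, -0.615, -0.12 and -0.43 in set1htz1sir2, set1htz1, H3K4A and set1, with a limma adjusted p of 0.0163 in set1. GAS2 averaged -0.75, 0.91, 0.07 and -0.18 in the same order, with a range of 0.67 to 1.08 over 3 arrays in set1htz1. SMK1 was not called in H3K4A, and GAS2 was not called in H3K4A or set1. The median of the list was 0.09, 0.47, 0.19 and 0.26 in set1htz1sir2, set1htz1, H3K4A and set1.

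The next list holds genes that supply tryptophan, the precursor of the pathway. Of 10 tested, 6 were higher and 2 lower in set1htz1sir2 (all genes 24.1% and 26.3%), 5 and 1 in set1htz1 (all genes 21.2% and 26.3%), 2 and 0 in H3K4A, TRP1 included (all genes 3.59% and 0.602%), and 1 and 1 in set1, which is near the share of all genes there (9.05% and 9.79%). TRP5, the gene of tryptophan synthase, rose by 0.77, 1.01 and 0.46 in set1htz1sir2, set1htz1 and H3K4A and was at 0.16 in set1 with no call. TRP2, the gene of anthranilate synthase, rose by 0.83 in set1htz1sir2, 0.80 in set1htz1 and 0.67 in set1 and was at 0.19 in H3K4A with no call. ARO4, which acts at the entry to aromatic amino acid synthesis, rose by 0.77 in set1htz1sir2 and by 0.56 in set1htz1. TRP1, which is also a common selection marker, rose by 2.15 ± 0.10 in H3K4A and by 0.30 in set1htz1sir2, and lay at 0.03 in set1htz1 and 0.16 in set1 with no call. No source used here says whether the H3K4A strain carries it as a marker. Of 3 tested genes of aromatic amino acid breakdown, 0 were higher and 2 lower in set1htz1sir2 (ARO10 at -0.89 and the activator gene ARO80 at -0.35), 0 and 1 in set1htz1 (ARO80 at -0.42), 0 and 0 in H3K4A, and 0 and 1 in set1 (ARO80 at -0.28). Among all genes the shares higher and lower were 24.1% and 26.3% in set1htz1sir2 and 21.2% and 26.3% in set1htz1. They were 3.59% and 0.602% in H3K4A and 9.05% and 9.79% in set1. ARO9, the aromatic aminotransferase gene, was called in no mutant, at 0.02, 0.09, 0.15 and -0.06 in set1htz1sir2, set1htz1, H3K4A and set1.

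**Figure D3:**
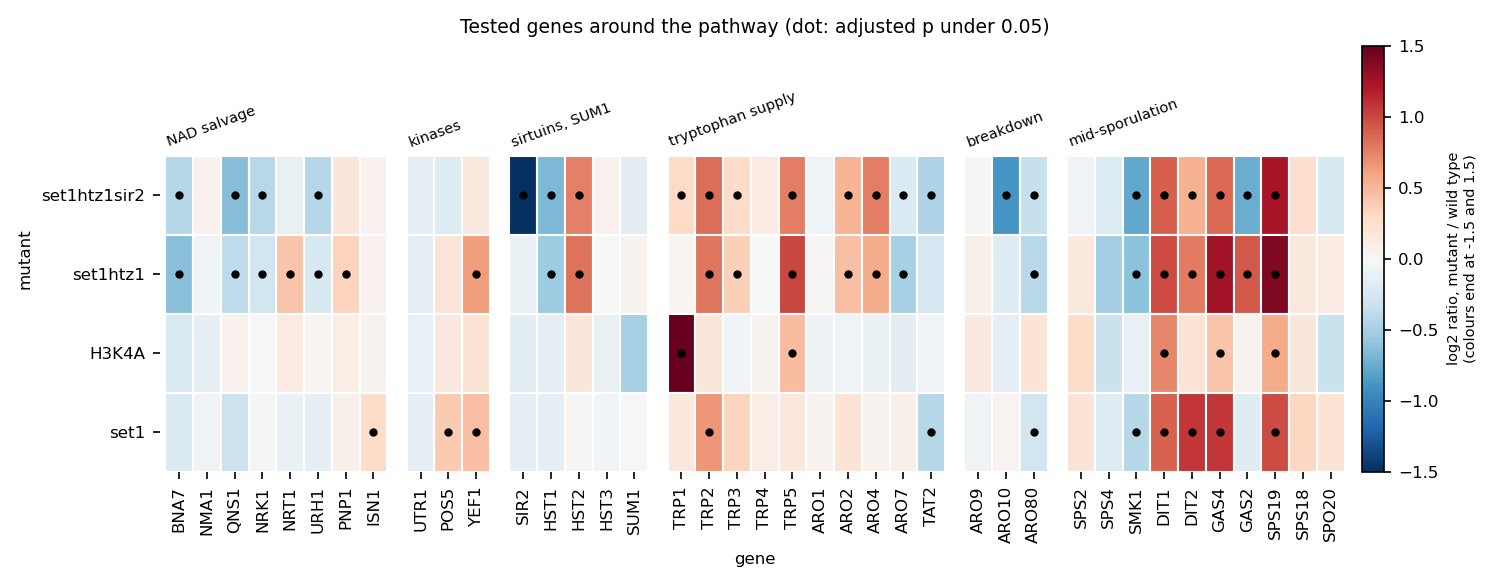
Log2 ratio of mutant over wild type as colour (red higher, blue lower, colours end at 1.5 either way) for tested genes around the pathway (columns, by list) in the 4 mutants (rows); a dot marks an adjusted p under 0.05. BNA7 and QNS1 are lower and TRP5 and ARO4 higher in set1htz1sir2 and set1htz1, and SPS19, GAS4 and DIT1 are higher in every mutant.

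For the 3 genes with the largest ratios, the genes of most similar profile were found by the root mean square (RMS) difference of log2 ratios over the 16 arrays, as a description with no test. Nearest to BNA2 were IRC18 at an RMS difference of 0.394, YNR064C at 0.490 and LOH1 at 0.533. IRC18 averaged 1.96, 2.27, 0.72 and 2.14 in set1htz1sir2, set1htz1, H3K4A and set1, so it shared the low H3K4A level of BNA2 but was less high than BNA2 in set1htz1 and higher in the other mutants. IRC18 (YJL037W) and LOH1 (YJL038C) have neighbouring systematic names.

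Nearest to TNA1 was YGR259C at an RMS difference of 0.321, then YNL034W at 0.416 and YBL094C at 0.426. YGR259C and YBL094C had no symbol among the RefSeq gene names. YGR259C has the systematic name next to that of TNA1 (YGR260W) and lies on the opposite strand, as the last letter of the name shows. Its log2 ratios were 0.16, 0.40, 0.32 and 0.41 in set1htz1sir2, 1.40, 1.32, 1.12 and 1.65 in set1htz1, 1.30, -0.17, -0.14 and 0.35 in H3K4A, and 1.15, 1.60, 1.29 and 1.94 in set1. It was high in the same 2 mutants as TNA1 and, like TNA1, highest on replicate 1 within H3K4A. On set1htz1sir2 replicate 4, where TNA1 was at 1.09, YGR259C was at 0.41. The sources used here give neither probe sequences nor the strand that a probe detects, so signal of these neighbours cannot be told apart.

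Nearest to BNA1 were LIN1 at 0.289, YNL208W at 0.299 and GSP2 at 0.304. LIN1 averaged 1.08, 1.06, 0.23 and -0.15 in set1htz1sir2, set1htz1, H3K4A and set1, and GSP2 averaged 1.20, 1.38, 0.03 and 0.26. All of them were high in the mutants that lack HTZ1 and near 0 in H3K4A and set1, as BNA1 was.

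**Figure D4:**
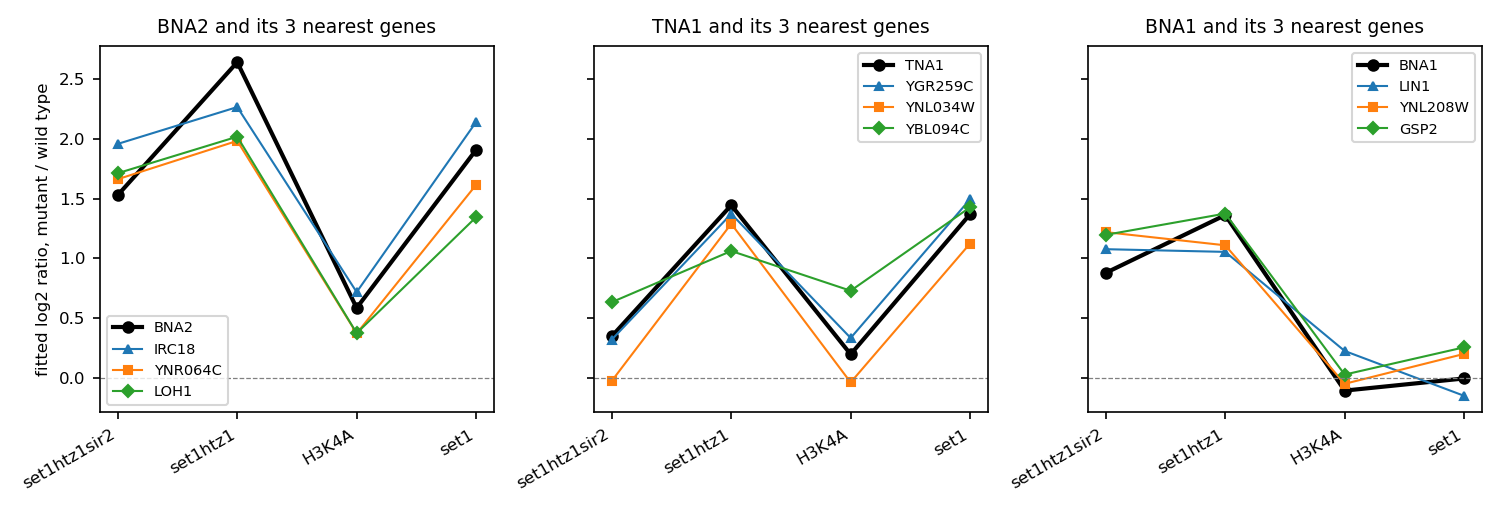
Fitted log2 ratio of mutant over wild type (vertical axis) in the 4 mutants (horizontal axis) for BNA2, TNA1 and BNA1 (black) and the 3 genes with the smallest RMS difference from each over the arrays (coloured); lines join the values of a gene and carry no order. The BNA2 set is lowest in H3K4A, the TNA1 set is highest in set1htz1 or set1, and the BNA1 set is high in set1htz1sir2 and set1htz1 only.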

How the data were processed

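Per the deposited description, GenePix 3.0 was used to quantify the arrays, weak and poor spots were discarded, and the authors normalized the mutant over wild-type ratio of each spot to the total signal in each sample. The deposited values are log2 ratios. Base 2 was settled from the values, which were whole steps of a ratio for 100% of the distinct values that could tell. Those values numbered 145 to 215 per H3K4A array and 13 to 18 per set1htz1sir2 array. They numbered only 4 or 5 per set1htz1 array and 1 per set1 array. Per the deposited description the arrays are 4 independent biological replicates per mutant. The sources used here give no genome build or probe sequence.

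Entries of 1 ORF name, with or without a z prefix, were averaged (6282 entries, 296 with the prefix, none of them among the 8 genes). The model, fitted to the 16 arrays together with limma 3.58.1 (R 4.3.3), had 4 group means and 1 shared dye term per gene and empirical Bayes moderation. A gene needed 3 values in every group. A gene was called at a Benjamini-Hochberg adjusted p under 0.05 over 5147 genes, in each of 10 comparisons. The fit was tested on simulated data. A RefSeq table of assembly R64 was used for names only and matched 5502 genes.

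The genes, lists and tests were chosen with earlier results of these data known. Named genes are all 8 members and up to 4 per list with the largest absolute mean over the mutants. Also named are the remaining steps to NAD, HST1, SUM1, the deleted genes, TRP1 and the 3 genes nearest in profile. POS5, UTR1 and ARO9 complete lists of 3. RFM1 was added as an untested gene listed with HST1 and SUM1. SMK1 and GAS2 were added as mid-sporulation genes that were below wild type in some mutants. Alternatives were median centring, quantile normalization, no dye term or one per group, a replicate block, entries without the prefix, a minimum of 2 values, groups fitted alone, and leaving out each array.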

Additional observations from a re-analysis of the deposited data

Results flagged for a closer look

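Of the 28 sets of 4 values that the 8 genes gave in the 4 mutants, 1 held an array far from the others by Dixon's test: BNA5 in H3K4A, at 0.55 on replicate 1 against 0.09 on each of the other 3 arrays. Chance alone marks such sets now and then. BNA5 was not called in H3K4A with or without that array.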

How the results depend on the processing

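The calls of BNA2 in set1htz1sir2, set1htz1 and set1, of TNA1 in set1htz1 and set1, and of BNA1 in set1htz1sir2 and set1htz1 were kept under every alternative run. The number of the 7 genes called was 0 rather than 1 in H3K4A with groups fitted alone. In set1htz1sir2 it was 2 rather than 4 with quantile normalization and 2 with no dye term, and 2 to 4 when 1 array was left out. With quantile normalization it was 1 in set1htz1 against set1 and 1 in set1htz1sir2 against H3K4A, rather than 2 in each. Signs turned only for ratios that were not called: with median centring BNA4 (0.005) and BNA1 (0.018) in set1, and with quantile normalization NPT1 in H3K4A (-0.032), TNA1 in set1htz1 against set1 (-0.23) and BNA5 in set1htz1sir2 against H3K4A (-0.045). When 1 array was left out, the ranges that crossed 0 were -0.11 to 0.029 for BNA4, -0.053 to 0.023 for BNA1 and -0.10 to 0.11 for NPT1 in set1, -0.10 to 0.20 for BNA4, -0.10 to 0.15 for BNA3 and -0.10 to 0.12 for NPT1 in H3K4A, -0.043 to 0.14 for BNA3 in set1htz1, -0.022 to 0.15 for TNA1 in set1htz1 against set1, and -0.10 to 0.32 for TNA1 and -0.016 to 0.15 for BNA5 in set1htz1sir2 against H3K4A. The causes were not tested. Replicate numbers follow the dye. Before the dye term was removed, 21 of 24 same-numbered pairs of arrays and 22 of 72 other pairs correlated over 0.1. Afterwards 4 of 24 and 31 of 72 did. The groups shared 1 dye term but differed in how far their arrays stood apart by dye. These counts therefore cannot tell whether same-numbered arrays share more than a number. A fit with the replicate block lost 1 call among these genes, that of BNA5 in set1htz1sir2 against set1 (0.41, limma adjusted p = 0.0548). The minimum of 2 values per group left the set of genes tested as it was. Over all genes, the number called in H3K4A was 216, against 786 with quantile normalization, 136 with no dye term, 23 fitted alone and 129 without replicate 4. In H3K4A against set1 it was 386, against 212 with no dye term, 96 fitted alone and 246 without H3K4A replicate 4. In set1 it was 970, against 595 without replicate 4. In set1htz1 against set1 it was 995, against 589 with quantile normalization and 658 without set1htz1 replicate 3. In set1htz1sir2 against set1htz1 it was 651, against 243 with quantile normalization, 408 with no dye term, 1278 fitted alone, 344 without set1htz1 replicate 3, and 354 and 399 without set1htz1sir2 replicates 1 and 3. In set1htz1sir2 against set1 it was 1479, against 830 with quantile normalization. Signal over background was not used here.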
